A study of Mus musculus with 59 samples.

Results

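The genes described here are 9 components and regulators of the complement system, C3, C4b, C1qa, C1qb, C1qc, C1s1, Cfb, C2 and Serping1, which were taken by symbol from the 47643 rows of a table of gene expression in mouse muscle. All 9 were found and all 9 passed the filter on low values in every comparison. RNA-seq had been done on 59 libraries from female NCI Ath/nude mice, 4 months old, which carried a patient-derived human melanoma xenograft in the flank that was either cachectic (CAC, causing wasting) or non-cachectic (NONCAC). Nude mice lack a thymus and hence most T cells, and all groups share this. The diaphragm groups also received intraperitoneal recombinant Fibcd1 (rFibcd1, a secreted protein studied as a regulator of myofiber size) or a mock injection of buffer with albumin: CAC mock (n = 10), CAC rFibcd1 (n = 10), NONCAC mock (n = 9) and NONCAC rFibcd1 (n = 10). Tibialis anterior (TA) and soleus (SOL) each had 5 CAC and 5 NONCAC libraries, with no treatment in their labels. No group without a tumour was analysed here, so each melanoma comparison is between xenografts. The study asked whether rFibcd1 counters changes of the diaphragm in cachexia. Values are TPM, transcript abundances scaled for gene length and to the same total in each library. Depth is therefore unknown, and the number of genes above 0 was 17950 to 19456 in diaphragm, 16436 to 17673 in TA and 17514 to 18191 in SOL. Libraries are called by their group and the number in their column name. The skeletal muscle markers summed to between 27413 and 76604 TPM in every library, and CAC library 7 of SOL held 4989 TPM of Myh4, the heavy chain of fast fibers.

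Complement is a cascade of blood and tissue proteins that marks targets for removal and recruits leukocytes. In the classical pathway C1q, a hexamer built from the chains of C1qa, C1qb and C1qc, recognises a target and activates the proteases C1r and C1s, which cleave C4 and C2 to form the enzyme that cleaves C3. The alternative pathway forms its own C3-cleaving enzyme with factor B, encoded by Cfb. Serping1 encodes C1 inhibitor, which blocks C1r and C1s. Macrophages are the usual source of C1q, while liver supplies most circulating C3, and fibroblasts and other tissue cells can make several components. The genes lie in small clusters of the genome. In GRCm38 with GENCODE M21 annotation, C1qb (chr4:136880129-136886187), C1qc (chr4:136889804-136893065) and C1qa (chr4:136895917-136898803) together span 18675 bases of the minus strand. C4b (chr17:34728380-34743882), Cfb (chr17:34856374-34862518) and C2 (chr17:34862604-34898265) lie on the minus strand within 169886 bases, with 85 bases between Cfb and C2. C3 (chr17:57203970-57228136), C1s1 (chr6:124530345-124542359) and Serping1 (chr2:84765387-84775444) are also on the minus strand. C4b has the near-identical copy C4a, and C1s1 has C1s2 beside it, so reads could be split between these pairs and their values are uncertain. Gm20547 overlaps both Cfb and C2 on the same strand, and whether the authors' counting could separate them was not tested.

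Stretches of 250 bases upstream of the gene start, from RefSeq on GRCm38.p6, are shown for 1 gene each of the recognition chains (C1qb), the proteases (C1s1) and the central component (C3), so that the start regions of these 3 roles can be set beside their levels. The window was found for 4 of the 9 genes. Capitals mark matches to a motif, searched on both strands.
C1qb (chr4:136886201-136886450, minus strand): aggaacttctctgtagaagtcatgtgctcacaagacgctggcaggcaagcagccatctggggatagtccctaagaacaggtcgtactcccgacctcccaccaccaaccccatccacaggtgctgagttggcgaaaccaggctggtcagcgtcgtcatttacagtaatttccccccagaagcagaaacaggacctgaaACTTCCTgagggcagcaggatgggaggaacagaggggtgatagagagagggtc
C1s1 (chr6:124542360-124542609, minus strand): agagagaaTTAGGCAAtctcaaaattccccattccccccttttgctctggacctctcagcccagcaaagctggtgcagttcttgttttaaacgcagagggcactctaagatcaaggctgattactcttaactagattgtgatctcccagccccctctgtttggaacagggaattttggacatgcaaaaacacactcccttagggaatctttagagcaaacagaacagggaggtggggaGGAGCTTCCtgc
C3 (chr17:57228137-57228386, minus strand): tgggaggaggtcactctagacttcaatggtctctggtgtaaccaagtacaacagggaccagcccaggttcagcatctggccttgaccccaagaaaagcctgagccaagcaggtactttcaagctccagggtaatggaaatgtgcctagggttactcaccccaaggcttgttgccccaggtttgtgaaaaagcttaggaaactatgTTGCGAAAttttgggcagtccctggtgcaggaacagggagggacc
The capitals in C1qb match AGGAAGT, the core bound by the myeloid factor PU.1, a motif added after the sequences had been seen, which is held by 7.69% of 32851 windows of this length. Those in C3, and the first in C1s1, match TTGCNNAA, the core of C/EBP factors, held by 9.56% of windows. The second in C1s1 matches GGNNNTTCC, a kappaB-type motif held by 15.7%. C1s1 has another RefSeq start, whose window (chr6:124542322-124542571) holds the kappaB match and no C/EBP match. The STAT motif TTCNNNGAA (7.02% of windows) and the ISRE-like motif GAAANNGAA (7.13%) were searched too. These matches describe the letters of the windows, and no binding was measured.

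The diaphragm held more RNA of these 9 genes than either limb muscle, and C3 was the most abundant of them in diaphragm. Of 29 other complement genes tested, 26 were called higher and 1 lower in diaphragm than in TA, but 11 higher and 1 lower than in SOL. In NONCAC mice, mock-injected diaphragm had 477 ± 158 TPM of C3 (SD, n = 9), against 9.18 ± 3.79 in TA and 27.9 ± 7.05 in SOL (n = 5 each). The C3 ranges did not overlap between the muscles. In a fit with limma on log2(TPM + 1), the level in diaphragm exceeded that in TA by 5.56 on the log2 scale for C3, 4.33 for C4b, 3.54 for Cfb and 3.40 for C2, and by 2.68 to 2.99 for Serping1, C1s1 and the C1q chains. All 9 genes were called higher in diaphragm than in TA (adjusted p under 0.05), where 64% of all genes tested were called higher. All 9 were also called higher in diaphragm than in SOL, where 16.8% of all genes were, from 1.04 for Serping1 to 4.01 for C3. Without the SOL library 63 the C1s1 difference was 1.30 with an adjusted p of 0.141 (limma), and 8 genes were called. Between the limb muscles, 8 of 9 were called lower in TA than in SOL, where 63.9% of all genes were. C4b differed most, by -2.23, and C1s1 was not called (-0.75, adjusted p = 0.406 by limma). The groups did not overlap in these comparisons for 8 of the 9 genes, C1s1 being the exception in each. The share of all genes without overlap was not computed, so this count is not set against a background. The Dunn test on ranks, the study's kind of test, called 2 of 9 for diaphragm against SOL, where it called 1178 of all 13501 genes (234 higher), and none for TA against SOL, where it called 4990 (386 higher). Under median-ratio scaling Cfb (-0.82, adjusted p = 0.097 by limma) and C2 (-0.52, 0.089) were no longer called between TA and SOL.

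These levels go with muscles of different cell content and collection. Summed mesothelial markers, genes of the lining that covers the diaphragm, were 60.1 to 310 TPM in diaphragm, at most 5.6 in TA and at most 1.8 in SOL. The sum of 10 macrophage markers was 44.2 to 88.4 TPM in NONCAC mock diaphragm, 6.7 to 11.8 in NONCAC TA and 21.7 to 32.6 in NONCAC SOL. Both sums were highest in diaphragm, and their part in the complement levels was not tested. In bulk tissue, fewer cells of a type and less RNA per cell cannot be told apart. Summed hepatocyte markers, genes of a tissue next to the diaphragm, ran from 30.8 to 10607 TPM in NONCAC mock diaphragm, with Alb at 5724 TPM in library 64.

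**Figure D1:**
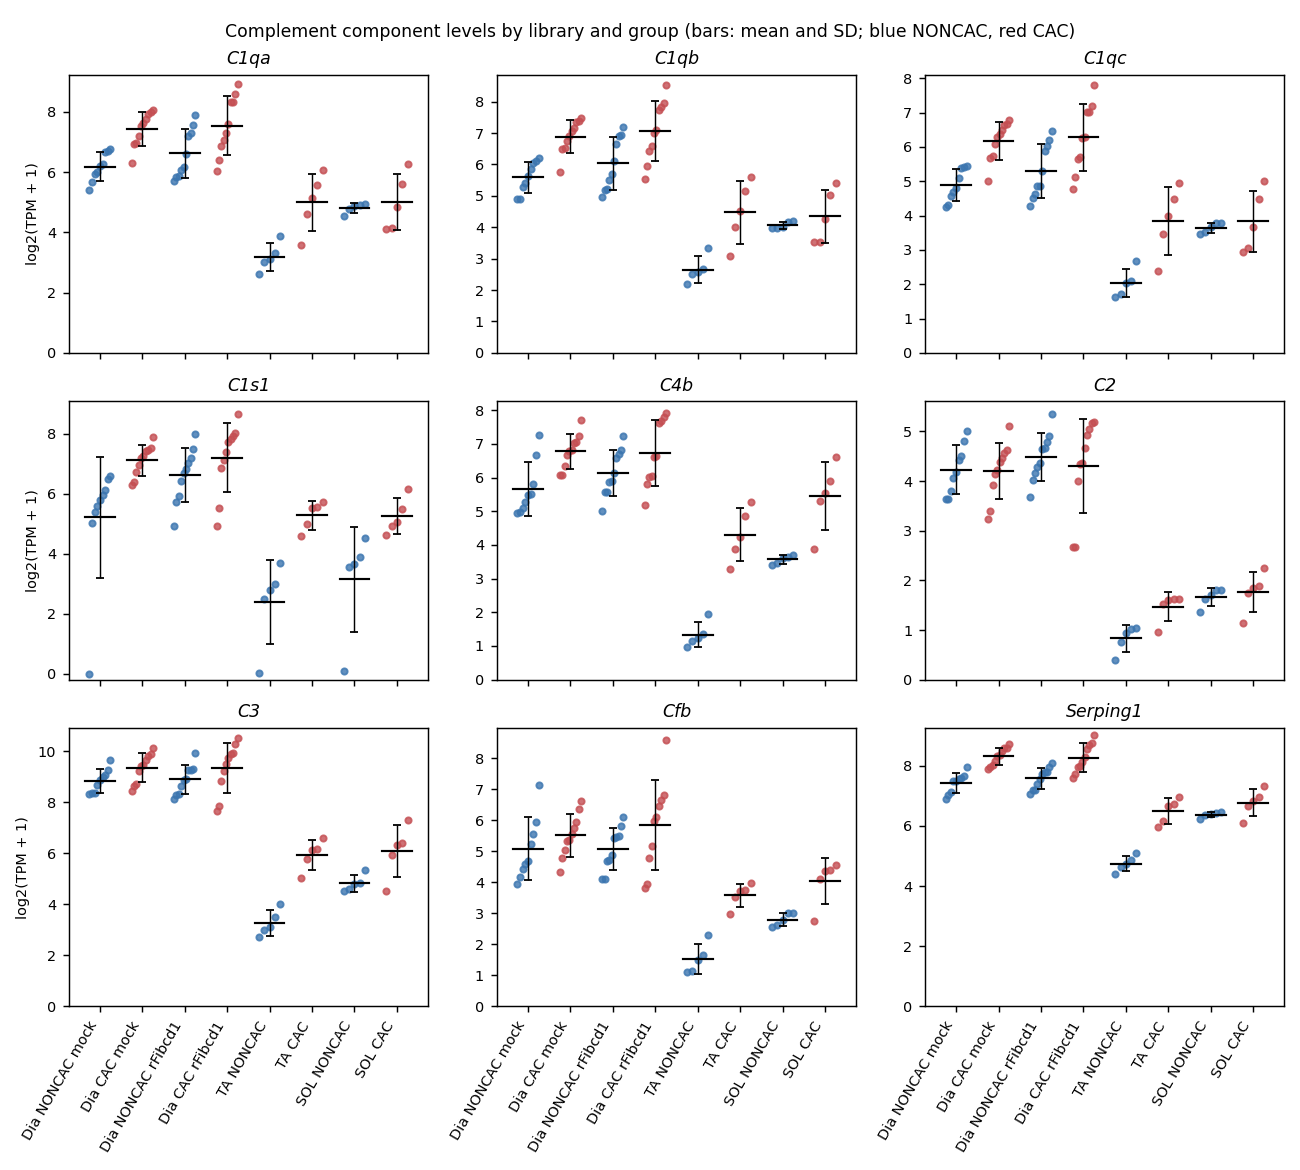
Level of each of the 9 complement genes, as log2(TPM + 1), in every library of the 8 groups, with each point a library and the bars giving the mean and SD on the log2 scale. Diaphragm groups lie above both limb muscles for C3, whose mean was 477 TPM in NONCAC mock diaphragm against 9.18 TPM in NONCAC TA, and C1s1 has 3 libraries close to 0, each with the number 63.

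Between cachectic and non-cachectic melanoma, each of the 9 genes that was called in a muscle was higher there with cachectic melanoma. In mock-injected diaphragm 6 of 9 were called higher and none lower, where 30.9% of all genes were called higher: the C1q chains, C1s1, C4b and Serping1. In TA all 9 were called higher, where 56.4% of all genes were. In SOL 4 were called higher, where 17.5% of all genes were: C1s1, C4b, C3 and Cfb. In rFibcd1-treated diaphragm 3 were called higher, where 7.14% of all genes were: C1qb, C1qc and Serping1. The median of the 9 log2 fold changes was 1.11 in mock diaphragm, 1.82 in TA, 0.40 in SOL and 0.69 in rFibcd1-treated diaphragm. Over all genes tested the medians were 0.20, 0.41, 0.09 and 0.08. Most calls over all genes were upward on the TPM scale, and under median-ratio scaling the all-gene medians moved to near 0. Of the genes called, the share called higher then went from 92% to 46.8% in mock diaphragm, from 93.7% to 45.6% in TA, from 70% to 54.3% in SOL and from 78.3% to 47.2% in rFibcd1-treated diaphragm. The same 6 complement genes stayed called in mock diaphragm under that scaling, all but C2 in TA, and C4b, C3 and Cfb in SOL. With the Pcna-ps2 state described below as a term, Serping1 alone stayed called in mock diaphragm, where 1652 of all 13426 genes were called higher. No called complement gene changed sign. Calls in rFibcd1-treated diaphragm and SOL depended on single libraries. With any of CAC rFibcd1 libraries 1, 4, 5 and 17 or NONCAC rFibcd1 libraries 46, 47, 48, 57 and 58 left out, Serping1 alone was called in rFibcd1-treated diaphragm. In SOL, leaving out CAC library 7, 8, 9 or 10 or NONCAC library 64 or 65 took the C1s1 and C3 calls. The C1s1 call was also lost without SOL NONCAC library 61 (2.29, adjusted p = 0.056 by limma), and the C3 call without 62 (1.23, 0.080) or 63 (1.28, 0.070).

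**Figure D2:**
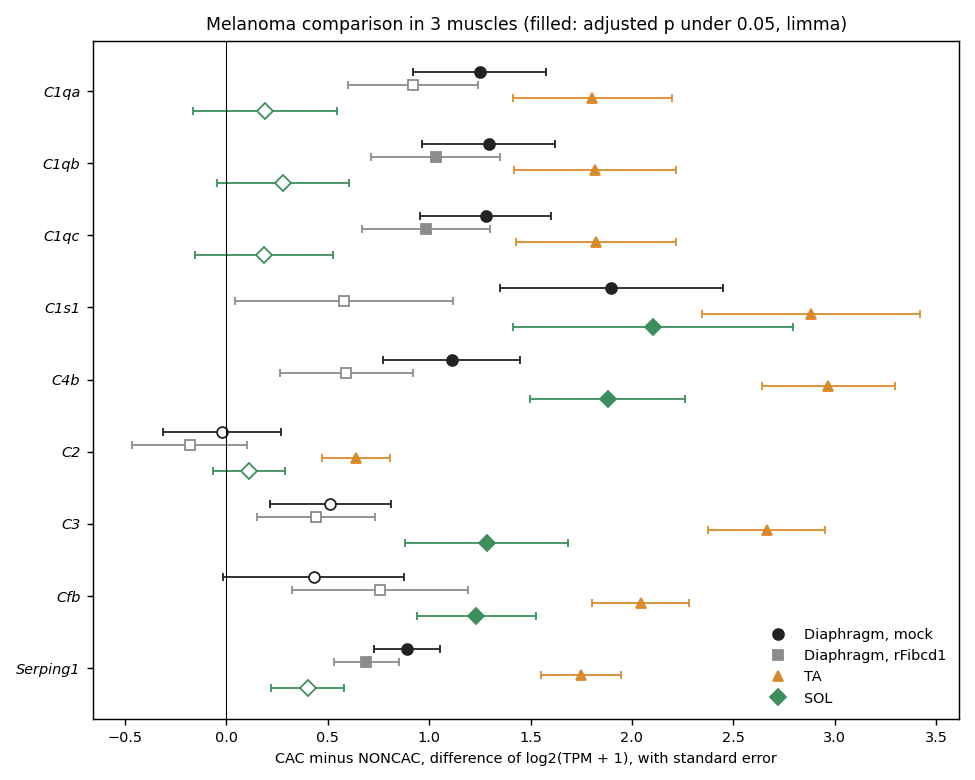
Log2 fold change (CAC minus NONCAC, on the log2(TPM + 1) scale) of each complement gene in mock-injected diaphragm, rFibcd1-treated diaphragm, TA and SOL, with bars giving the standard error and filled points an adjusted p under 0.05. All 9 points are filled in TA, 6 in mock diaphragm, 4 in SOL and 3 in rFibcd1-treated diaphragm, and C2 in mock diaphragm lies at -0.02.

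The chains of C1q moved together. In mock-injected diaphragm C1qa ran from 77.2 to 267 TPM with a median of 190 in CAC mice, and from 41.2 to 108 with a median of 72.6 in NONCAC mice. Of the CAC libraries, 9 of 10 lay above every NONCAC library for each of the 3 chains. Log2 fold changes were 1.25 ± 0.33 (SE, adjusted p = 0.00407 by limma) for C1qa, 1.29 ± 0.33 (0.00307) for C1qb and 1.28 ± 0.32 (0.00315) for C1qc. In TA, C1qa was at 34.5, 10.9, 66.3, 23.4 and 46.1 TPM in CAC libraries 6 to 10 and at 7.13, 8.90, 5.14, 13.7 and 7.63 in NONCAC libraries 61 to 65. The CAC libraries were higher, except that library 7 lay below NONCAC library 64. The TA changes were 1.80 for C1qa and 1.82 for C1qb and C1qc, with adjusted p of 0.00442, 0.00456 and 0.00441 (limma). In SOL, C1qa was at 16.8, 16.4, 27.5, 47.3 and 75.7 TPM in CAC and at 29.9, 22.1, 28.9, 28.1 and 26.2 in NONCAC. The NONCAC libraries sat close together inside the spread of the CAC libraries, and none of the 3 chains was called (C1qa 0.19, adjusted p = 0.73 by limma).

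The ratios within C1q stayed narrow. C1qa over C1qb was 1.51 ± 0.145 (SD) and C1qa over C1qc 2.45 ± 0.193 in TPM over the 59 libraries, with ranges of 1.23 to 1.97 and 2.01 to 3.33. After each group's mean was taken out, the 3 pairs of chains correlated at r = 0.988 to 0.994 over 59 libraries. Pairs with C1s1 were at 0.192 to 0.400 and the other 25 pairs at 0.599 to 0.877, the highest being C3 with Cfb. These are descriptions, since all genes share the same libraries and cell content.

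C1s1 encodes the protease that C1q sets in action. In mock-injected diaphragm it ran from 76.5 to 236 TPM with a median of 149 in CAC mice, and from 0 to 94.3 with a median of 54.0 in NONCAC mice. The change was 1.90 ± 0.55 (SE, adjusted p = 0.0085 by limma), with 8 of 10 CAC libraries above every NONCAC library. In TA it was at 46.5, 23.2, 44.8, 30.4 and 51.2 TPM in CAC and at 4.55, 11.9, 0.0182, 6.88 and 5.89 in NONCAC. In SOL the values were 23.8, 31.9, 29.1, 43.8 and 70.5 TPM in CAC and 13.6, 22.2, 0.0536, 11.7 and 10.8 in NONCAC. Neither limb muscle overlapped between groups. The changes were 2.88 ± 0.54 in TA (adjusted p = 0.00227 by limma) and 2.10 ± 0.69 in SOL (0.0442). NONCAC library 63 was at or near 0 in each muscle, and without it the changes were 1.25 in diaphragm (adjusted p = 0.0138 by limma), 2.29 in TA (0.000571) and 1.34 in SOL (0.0132).

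C1s1 also went with a ratio that set libraries apart. C1ra and C1rb, copies of the gene of the partner protease C1r, lie on both sides of C1s1 on the plus strand (chr6:124512405-124523443 and chr6:124570294-124581171), and reads could be split between them. C1rb over C1ra in TPM was 0.0707 to 0.145 in 44 libraries, 0.796 to 1.51 in 12 libraries and 4.84 to 7.10 in the remaining 3. Those 3 were the NONCAC libraries numbered 63 in diaphragm, TA and SOL, which held the lowest C1s1. C1s1 ran from 11.9 to 399 TPM in the 44 libraries and from 4.55 to 54.0 in the 12. Libraries 61, 64 and 65 were among the 12 in each muscle, and library 62 was among the 44 in each. Of the 12, 11 were NONCAC libraries, and all limb CAC libraries were among the 44. With the 7 diaphragm libraries above a ratio of 0.3 left out (chosen after seeing the data), the C1s1 change in mock diaphragm was 0.83 (adjusted p = 0.14 by limma) and no longer called. In each limb muscle 1 NONCAC library, number 62, would remain, and that fit was not run. Whether the mice differed in genotype at these genes was not tested.

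**Figure D3:**
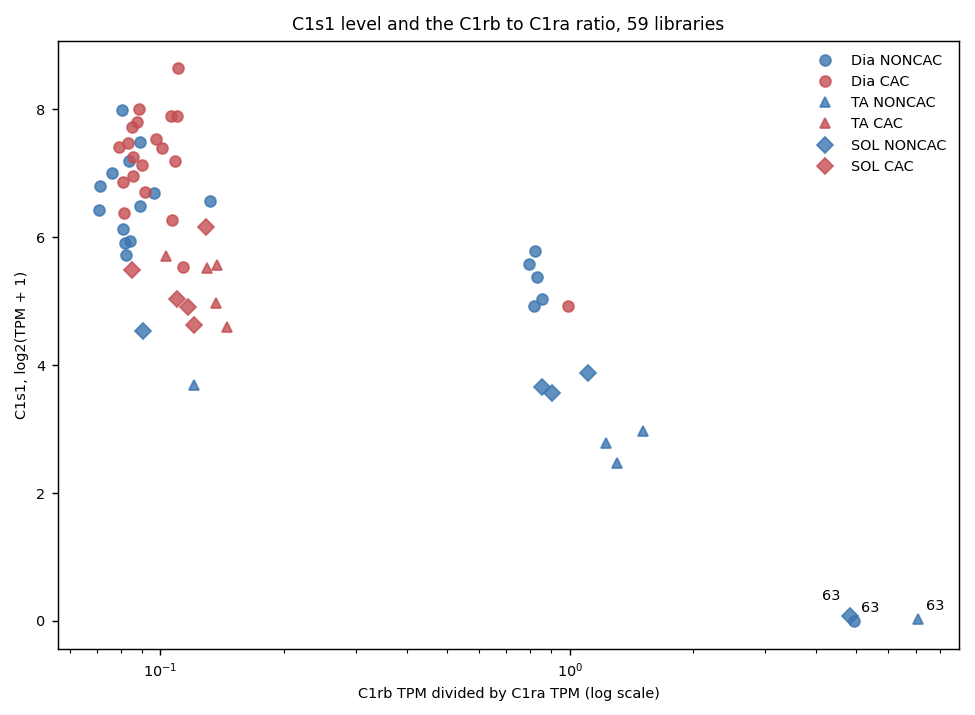
C1s1 level against C1rb TPM over C1ra TPM in each of the 59 libraries, with C1s1 as log2(TPM + 1), the ratio on a log axis, colour for xenograft, shape for muscle and the libraries numbered 63 marked. The 44 libraries with a ratio of 0.145 or less hold 11.9 to 399 TPM of C1s1, and the 3 marked libraries, with ratios of 4.84 to 7.10, hold 0.0536 TPM or less.

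Of the components that C1s cleaves, C4b was called higher in mock-injected diaphragm, TA and SOL, and C2 in TA. In mock-injected diaphragm C4b ran from 65.8 to 210 TPM in CAC (median 111) and from 29.7 to 154 in NONCAC (median 43.9). All 10 CAC libraries lay above the NONCAC median, and 1 lay above every NONCAC library. The change was 1.11 ± 0.34 (SE, adjusted p = 0.0117 by limma), and 1.31 (0.00335) without NONCAC library 64, the library rich in hepatocyte markers. This call was lost with the Pcna-ps2 state described below as a term. In rFibcd1-treated diaphragm C4b changed by 0.59 and was not called (adjusted p = 0.263 by limma). In TA, C4b had the largest ratio of means of the 9 genes, 13.2-fold: 13.8, 8.68, 37.8, 17.9 and 28.0 TPM in CAC against 0.964, 1.57, 1.24, 2.89 and 1.37 in NONCAC. In SOL it was at 13.8, 45.5, 97.5, 58.3 and 38.2 TPM in CAC against 11.6, 11.1, 12.1, 9.59 and 10.0 in NONCAC. The groups did not overlap in either limb muscle, with changes of 2.97 (adjusted p = 0.000129 by limma) and 1.88 (0.00499). C2 was low in limb muscle, at 0.311 to 2.08 TPM in TA, and rose there by 0.64 (adjusted p = 0.00925 by limma). That C2 call was lost under median-ratio scaling (0.37, adjusted p = 0.099 by limma). C2 changed by -0.02 in mock diaphragm and 0.11 in SOL, neither called.

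C3 and Cfb were called in the limb muscles but not in diaphragm. C3 in mock-injected diaphragm was 695 ± 257 TPM (SD, n = 10) in CAC and 477 ± 158 in NONCAC (n = 9), a change of 0.51 ± 0.30 (SE, adjusted p = 0.178 by limma). In TA, C3 was at 68.3, 31.8, 70.0, 54.2 and 96.4 TPM in CAC and at 7.64, 6.98, 5.63, 15.2 and 10.5 in NONCAC. The groups did not overlap, and the change was 2.66 ± 0.29 (adjusted p = 0.000117 by limma). In SOL, CAC library 6 was at 22.0 TPM, just under the NONCAC range of 22.2 to 39.9, while the other CAC libraries were at 60.9 to 158. The SOL change was 1.28 ± 0.40 (adjusted p = 0.0361 by limma). Cfb, at 42.5 ± 39.6 TPM in NONCAC mock diaphragm, where library 64 reached 140.2, changed by 0.43 there (adjusted p = 0.455 by limma). Without that library the change was 0.69 (0.222). Cfb was 10.5, 6.87, 12.4, 12.1 and 14.6 TPM in CAC and 1.82, 1.19, 1.15, 3.91 and 2.19 in NONCAC in TA, and rose by 2.04 there (0.000165) and by 1.23 in SOL (0.0109, limma).

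Serping1, the inhibitor, had the smallest SD relative to its mean of the 9 genes in both mock-injected diaphragm groups. It ran there from 234 to 417 TPM in CAC (median 325) and from 118 to 246 in NONCAC (median 179), and 9 of 10 CAC libraries lay above every NONCAC library. The change was 0.89 ± 0.16 (SE, adjusted p = 0.000194 by limma). In TA it was at 70.3, 60.8, 125, 100.4 and 105 TPM in CAC and at 23.8, 27.9, 20.3, 33.3 and 25.4 in NONCAC, without overlap, a change of 1.75 ± 0.20 (0.000136, limma). In SOL the CAC libraries were at 67.5, 101, 112, 160.5 and 125 TPM and the NONCAC libraries at 73.5 to 87.2. CAC library 6 lay under all NONCAC libraries there, and the change of 0.40 was not called (adjusted p = 0.127 by limma). Without that library it was 0.57 and called (0.00774).

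Some macrophage markers were also called in the melanoma comparison. Of 10 markers, 5 were called higher in mock diaphragm (Cd14, Mrc1, Cd163, Mertk and Ms4a7) and none lower, with a median change of 0.75, beside 30.9% of all genes called higher. In TA 6 of 6 tested were called higher, beside 56.4% of all genes, and in SOL 2 of 7 (Cd68 and Cd14), beside 17.5%. The marker sum ran from 55.9 to 215 TPM in CAC mock diaphragm and from 44.2 to 88.4 in NONCAC, from 12.6 to 74.0 and 6.7 to 11.8 in TA, and from 20.8 to 119 and 21.7 to 32.6 in SOL. Across the 39 diaphragm libraries, with group means removed, the C1q chains correlated with this sum at r = 0.93 to 0.94, C3 at 0.89, Cfb at 0.87, Serping1 at 0.86, C2 at 0.78, C4b at 0.77 and C1s1 at 0.48, as a description. Other marker sums correlated with some genes too: C2 at 0.89 with mesothelial and 0.81 with fibroblast markers, and C3 at 0.78 and 0.81. In mock diaphragm 3 of 4 neutrophil markers tested were called higher, and 2 of 8 fibroblast, 2 of 4 endothelial and 2 of 6 skeletal muscle markers, beside 30.9% of all genes. The fibroblast and skeletal muscle shares were at or near that background. No hepatocyte, mesothelial or adipocyte marker was called there, although 4 of 6 adipocyte markers had an unadjusted p under 0.05. In SOL 3 of 8 fibroblast markers were called lower and 1 higher, where 2098 of the 2999 genes called were higher. In TA 4 of 8 fibroblast markers were called higher and none lower. Of 6 skeletal muscle markers in TA, 3 were called lower and 1 higher. Over all genes 6260 of the 6680 called in TA were higher. The 2 neutrophil markers tested were called higher in each limb muscle. The part of these cell types in the complement comparisons was not tested.

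**Figure D4:**
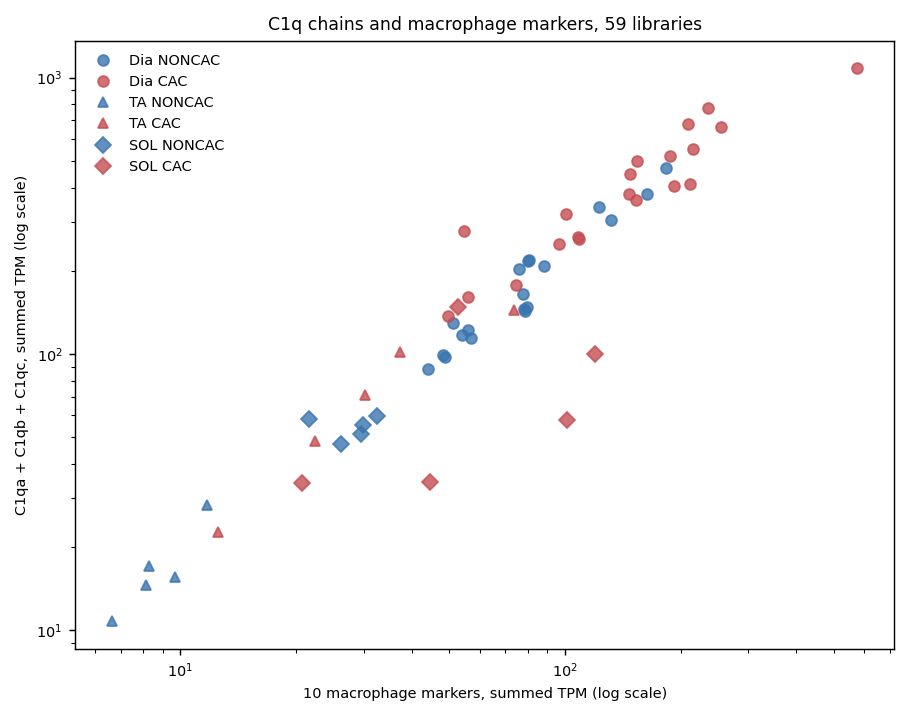
Summed C1q chains (C1qa, C1qb and C1qc, in TPM) against the summed TPM of 10 macrophage markers in each library of the 3 muscles, on log axes. The points lie along a rising band from TA to diaphragm, several SOL CAC libraries lie below it, and CAC rFibcd1 diaphragm library 1 lies highest, with a C1q sum of 1080 TPM and a marker sum of 575 TPM.

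A second split of libraries crossed the melanoma comparison. Pcna-ps2, which the annotation names as a pseudogene of Pcna, was at 5.60 TPM or more in 36 libraries and at 0.428 or less in 23. It was above 1 TPM in 9 of 10 CAC mock, 8 of 10 CAC rFibcd1, 3 of 9 NONCAC mock and 6 of 10 NONCAC rFibcd1 diaphragm libraries. In the limb muscles it was above 1 TPM in all 10 CAC and in none of the 10 NONCAC libraries, so the split and the melanoma cannot be told apart there. In diaphragm, with this state as a term, 1 of the 6 calls remained, Serping1 (0.67, adjusted p = 0.0054 by limma), where 1652 of all 13426 genes were called higher. C1qa fell to 0.77 (0.093), C4b to 0.85 (0.11) and C1s1 to 0.94 (0.2). With high libraries alone, 9 CAC and 3 NONCAC, the calls were C1qa 1.46 (0.046), C1qb 1.43 (0.04), C1qc 1.47 (0.04), C4b 1.62 (0.031) and Serping1 0.95 (0.018, limma), but not C1s1 (0.79, 0.11), where 708 of all 14159 genes were called higher. C1qa in NONCAC mock diaphragm averaged 72.1 TPM in the 3 high and 76.4 in the 6 low libraries, while C1s1 averaged 84.0 and 38.9. In the other diaphragm groups C1qa was higher in the high libraries: 194 TPM on average in 9 high CAC mock libraries and 77.2 in the 1 low, 257 in 8 high and 98.4 in 2 low CAC rFibcd1 libraries, and 148 in 6 high NONCAC rFibcd1 libraries, where the 4 low libraries were at 50.7 to 71.0. The 3 libraries with C1rb over C1ra above 2 and the 12 from 0.3 to 2 were all low in Pcna-ps2, as were 8 of the other 44. The 2 splits of libraries are therefore not separate. The part of the Pcna-ps2 state in the comparisons was not tested beyond these fits.

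**Figure D5:**
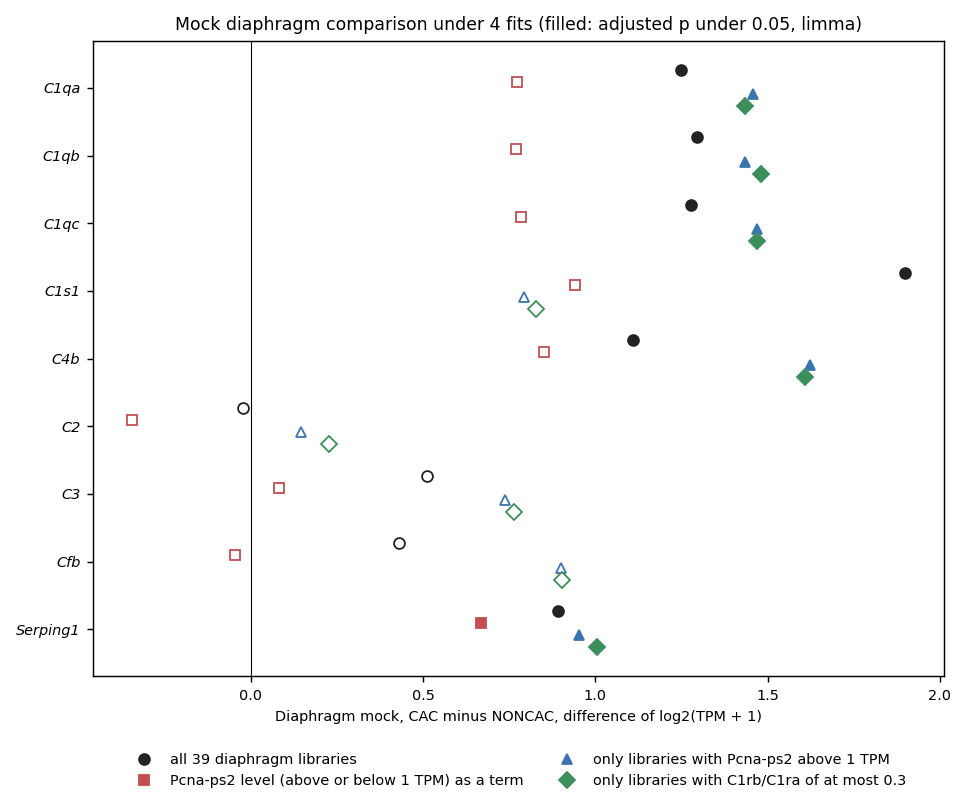
Log2 fold change of each complement gene in mock-injected diaphragm (CAC minus NONCAC) under 4 fits: all libraries, Pcna-ps2 state as a term, libraries above 1 TPM of Pcna-ps2 only, and libraries with C1rb over C1ra of 0.3 or less, with filled points for an adjusted p under 0.05. Serping1 is filled in every fit, from 0.67 to 1.00, and C1s1 only in the fit of all libraries without the state term, at 1.90.

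Treatment with rFibcd1 changed none of the 9 genes beyond the replicate spread. In CAC diaphragm the log2 differences (rFibcd1 minus mock) ran from -0.05 for C4b to 0.33 for Cfb, with adjusted p of 0.823 to 0.995 (limma) and no unadjusted p under 0.05. Without CAC rFibcd1 library 1, which held 383 TPM of Cfb, the Cfb difference was 0.02. Over all genes 0.0447% were called in either direction. In NONCAC diaphragm they ran from -0.00 to 1.41, where 0.417% of all genes were called. C1s1 was the highest, at 114 ± 66.2 TPM (SD, n = 10) with rFibcd1 and 53.9 ± 29.0 (n = 9) with mock, and the only gene with an unadjusted p under 0.05 (0.0149, adjusted p = 0.256 by limma). Without NONCAC library 63, at 0 TPM, the difference fell from 1.41 to 0.75 (adjusted p = 0.338 by limma). The split by C1rb over C1ra crossed this comparison too, with a ratio of at most 0.3 in 4 NONCAC mock and 9 NONCAC rFibcd1 libraries. The Dunn test on ranks called none of the 9 in either comparison, and 0 and 14 of all 13426 genes in CAC and NONCAC mice. The background moved with the fit while the count of the 9 stayed at 0: with only the groups needed 2453 of 12541 genes were called in NONCAC mice, in place of 56, and with high Pcna-ps2 libraries only 789 of 14159 in CAC mice, in place of 6. The interaction of melanoma and rFibcd1 also called none, with no unadjusted p under 0.05 and 0.0223% of all genes called. C1s1 was furthest from 0 there, at -1.32 ± 0.77 (SE, adjusted p = 0.627 by limma), and at -0.67 (0.740) without library 63.

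In rFibcd1-treated mice C1qb was at 161 ± 103 TPM in CAC and 75.1 ± 42.7 in NONCAC diaphragm (SD, n = 10 each). C1qb and C1qc were called, at 1.03 (adjusted p = 0.0355 by limma) and 0.98 (0.0428), and C1qa was not, at 0.92 (0.0612). C1qa was called under median-ratio scaling (0.85, 0.0423), with a mean of at least 5 TPM (0.92, 0.0487) and without CAC library 11, 14 or 18 or NONCAC library 56 or 60, so the calls do not set it apart from the other chains. Both calls were lost with no filter on low values (966 of 23683 genes called), with only the groups needed (335 of 12829) and without libraries of high C1rb over C1ra (307 of 14007), and C1qc also with the Pcna-ps2 state as a term. With high Pcna-ps2 libraries only, and by the Dunn test, no gene of the whole table was called, so these settings say nothing about single genes. Serping1 was at 324 ± 107 TPM against 196 ± 47.0, a change of 0.69 (0.00654, limma). The CAC rFibcd1 group had the largest SD in TPM of the diaphragm groups for all 9 genes, with C1s1 from 29.6 to 399 TPM and Cfb from 13.0 to 383. CAC library 1 was highest for 8 of 9 genes, and NONCAC library 56 was highest for all 9 in its group. The mock and rFibcd1 comparisons differ in their calls, and the test of that difference is the interaction, which called none.

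The melanoma effect was smaller in diaphragm than in TA for C3, C4b and Serping1, by -2.15 ± 0.44 (SE, adjusted p = 0.00334 by limma), -1.86 ± 0.50 (0.0257) and -0.86 ± 0.25 (0.0361), where 4.33% of all genes were called smaller. For Cfb the difference was -1.61 (0.0636). Libraries of the 3 muscles share column numbers 6 to 10 and 61 to 65, and with the column number as a replicate block, chosen after seeing the data, Cfb was called at -1.85 (0.00565, limma). The block raised the calls over all genes from 681 to 2317 for diaphragm minus TA, from 340 to 994 for diaphragm minus SOL and from 2750 to 5569 for TA minus SOL. Against SOL no gene was called, where 2.52% of all genes were called in either direction. The 3 C1q chains had an unadjusted p under 0.05, at 1.06, 1.01 and 1.09 for C1qa, C1qb and C1qc, with adjusted p of 0.253, 0.262 and 0.224 (limma). The effect was larger in TA than in SOL for 5 genes, where 19.1% of all genes were called larger: C1qa 1.61 (0.0311), C1qb 1.54 (0.0349), C1qc 1.64 (0.0272), Serping1 1.35 (0.00151) and C3 1.38 (0.0483, limma). These comparisons share libraries. Under median-ratio scaling 1 of the 5 was still called, where 509 of all 13501 genes were called larger. With 1 library left out the TA minus SOL count ran from 1 to 5, with Serping1 called each time: it was 1 without TA library 8 or 63 or SOL library 6 or 7, 2 without TA library 10, and 3 without TA library 62 or SOL library 64. The C3 call of TA minus SOL was lost in 26 of 39 such fits. In diaphragm minus TA, the Serping1 call was lost with no filter, under median-ratio scaling and under quantile normalization, and the C4b call under quantile normalization. The diaphragm minus TA count was 1 without TA library 8, 61 or 63, where C3 alone was called. The Serping1 call was also lost without TA library 9, 10, 62 or 65 or diaphragm library 68, and Cfb was called without diaphragm library 34, 35 or 67, TA library 7 or SOL library 6.

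Of 44 other complement genes, 30 were tested in mock-injected diaphragm, where 12 were called higher and 1 lower, with a median of 0.56, beside 30.9% of all genes called higher. Among initiators, C1ra rose by 1.14 (adjusted p = 0.00343 by limma), from 37.1 to 82.1 TPM. C1ra and C1rb form the ratio that set libraries apart, and that split crossed the melanoma comparison in each muscle. A ratio of at most 0.3 was found in 10 of 10 CAC mock but 4 of 9 NONCAC mock diaphragm libraries. In each limb muscle it was found in 5 CAC libraries and 1 NONCAC library. No fit of C1ra or C1rb without the other libraries is given here. C4a, the copy of C4b, rose by 0.76 (0.0345). Cfd, the factor D protease of the alternative pathway made by fat cells, rose by 1.34 (0.0478), from 321 to 811 TPM. Of the terminal components, which form the membrane pore, C7 rose by 1.28 (0.000643), C6 by 1.26 (0.0044), and C8g fell by 0.79 on the log2 scale. Of regulators, 2 of 4 soluble and 2 of 5 membrane ones tested were called higher, among them Clu by 0.66 (0.0273) and Cd59a by 0.64 (0.000173, limma). The membrane regulators had a median change of 0.22, beside 0.20 over all genes. C5ar1, the receptor for C5a on myeloid cells, rose by 1.25 (0.0015), from 2.31 to 7.00 TPM. In TA 13 of 18 were called higher and none lower, beside 56.4% of all genes, among them C1ra (2.28), Fcna (1.63) and Clu (1.56). In SOL 3 of 22 were called higher, near the 17.5% of all genes called higher, among them Colec11 (0.71) and Cd59a (0.59). C1rb, which reads could share with C1ra, fell there by 1.42 on the log2 scale. In the rFibcd1 comparisons none of 30 was called, with 1 unadjusted p under 0.05 in CAC and 6 in NONCAC mice by limma, and 3 for the interaction. In rFibcd1-treated diaphragm, CAC against NONCAC, none of 30 was called, with 6 unadjusted p under 0.05, beside 7.14% of all genes called higher.

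The genes with the most similar pattern over the 59 libraries, after group means were removed, were named for each component among 8754 genes. C1qa, C1qb and C1qc shared Ms4a6c, Fcer1g and Fcgr3 (r = 0.913 to 0.932), and Fcer1g and Fcgr3 encode Fc receptor subunits of myeloid cells. Serping1 was closest to Mnda (0.899) and Ifitm3 (0.854), Cfb to Tapbp (0.882), and C2 to Myrf (0.898) and Rspo1 (0.886). C3 was closest to Slc9a3r1 (0.838), C4b to Igfbp4 (0.854) and C1s1 to C1ra (0.846), its neighbour. These r values are across libraries that share cell content and are descriptions only.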

How the data were processed

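RNA was extracted with Trizol from diaphragm, TA and SOL. The deposited TPM values were made by the authors with the RNA-Seq tool of CLC Genomics Workbench from reads mapped to mm10 (GRCm38). The annotation is not given in the sources used here, and labels and methods name different library kits and instruments. Every column sums to the same total, so depth is unknown and no counting interval was computed. Groups came from labels alone, and p-values measure the spread between labelled replicates. TPM were transformed to log2(TPM + 1), and fold changes on this scale understate those of low genes. Genes at 1 TPM or more in as many libraries as the smallest group were tested with limma 3.58.1 in R 4.3.3, two-sided, with Benjamini-Hochberg adjustment over all genes, and called at 0.05, which was checked on simulated data. The 39 diaphragm, 10 TA and 10 SOL libraries were fitted apart, and 39 libraries without rFibcd1 together. The members and lists were chosen with earlier results of these data known, and all 9 are named. Other complement genes named were the most changed called ones of each role, of which 1 is not reported here. Alternatives included another pseudocount, filters, scalings, library states and the Dunn test.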

Additional observations from a re-analysis of the deposited data

Results flagged for a closer look

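A single library stood apart from its group for 4 of the 72 sets of a gene in a group. The rule flags about 1 in 20 sets by chance, so this number is close to what chance gives. C1s1 was at 0 TPM in NONCAC mock diaphragm library 63, where the next lowest library was at 31.7, and at 0.0536 TPM in SOL NONCAC library 63, where the next was at 10.8. Cfb was at 5.67 TPM in SOL CAC library 6, next to 16.1. C2 was at 0.935 TPM in TA CAC library 7, next to 1.89.

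The melanoma effect differed between muscles by test of the difference in limma. Diaphragm minus TA was -2.15 for C3, -1.86 for C4b and -0.86 for Serping1 on the log2 scale. TA minus SOL was 1.38 for C3, 1.61 for C1qa, 1.54 for C1qb, 1.64 for C1qc and 1.35 for Serping1.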

How the results depend on the processing

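Of 862 values of the 9 genes under other settings, 808 kept their call, 49 lost and 5 gained it, and none reversed among called values. 25 changed sign with no call in either fit. In rFibcd1-treated diaphragm (3 called) the count was 1 with no filter, 1 with only the groups needed, 0 with high Pcna-ps2 libraries only, 1 without libraries of high C1rb over C1ra and 0 by the Dunn test, where 0, 307 and 0 of all genes were called in these last 3 settings. In SOL (4 called) it was 2 with no filter and 2 by the Dunn test, where 1969 of 21239 and 1748 of 11957 genes were called higher. For the effect of TA minus SOL (5 called) the count was 2 with no filter (2113 of 23466 genes called larger). It was 1 each with median-ratio scaling (509 of 13501), quantile normalization (376 of 13501) and only the groups needed (1718 of 12278). For diaphragm minus TA (3 called) the count was 1 with quantile normalization, where 401 of 13501 genes were called in either direction. In mock diaphragm (6 called) the count was 1 with the state as a term, where 1652 of 13426 genes were called higher. For levels, the Dunn test called 2 of 9 in diaphragm minus SOL and 0 of 9 in TA minus SOL.

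With 1 library left out the counts ran from 6 to 6 in mock diaphragm, 1 to 4 in rFibcd1-treated diaphragm, 9 to 9 in TA, 2 to 5 in SOL, 1 to 4 for diaphragm minus TA, 0 to 0 for diaphragm minus SOL and 1 to 5 for TA minus SOL. Levels gave 9 to 9, 8 to 9 and 8 to 8. SOL fell to 2 without library 7, 8, 9, 10, 64 or 65. Over all genes, calls in mock diaphragm went from 4501 to 2059 with the state term, 805 with high libraries only, 1830 without high ratios, 2121 with median-ratio scaling and 2297 with quantile normalization. The cause was not tested. A block by labelled replicate number was not run, since column numbers could not be tied to those labels. A replicate block on the column number (consensus correlation 0.381), chosen after seeing the data, gave 4 in place of 3 for diaphragm minus TA, with Cfb gained at -1.85, and changed no other call of the 9 genes.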
